A study of Homo sapiens with 16 samples.

Results

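The genes described here were 10 chemokines and chemokine receptors, CCL3, CCL4, CCL5, CCL20, CXCL8, CXCL10, CXCL16, CXCR4, CCR1 and CCR7, out of 20503 gene symbols matched on the array. They were found by the RefSeq accession that the array design gives each probe, which gave 12 probes for the 10 genes. CCL4 was chosen because its rise under bortezomib was among the largest on these arrays, so its changes under bortezomib and its line differences that include treated cells are given below as a description without a test, and the other 9 genes were taken in by family name. LP-1, a line grown from a human multiple myeloma, belongs to the subgroup that has lost or mutated TRAF3, the adaptor through which the cIAP ubiquitin ligases restrain NF-κB signalling. LP-1-cIAP2-eGFP cells carried a lentiviral pIRES2 vector with cIAP2 and eGFP, LP-1-eGFP cells carried the same vector with eGFP alone and served as control, so both were transduced derivatives of 1 line, and cIAP2 was raised from a vector in it. Each line was left untreated or exposed to 10 nM bortezomib, a reversible inhibitor of the proteasome, for 6 or 24 h, with 2 replicates in each of the 8 conditions, which gave 16 single-colour arrays.

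Chemokines are small secreted proteins that draw leukocytes along a gradient, and they act through receptors with 7 membrane passes that couple to inhibitory G proteins. CCL3 and CCL4 (MIP-1α and MIP-1β) are known in myeloma as products of the malignant plasma cell that act on bone, CCL3 through the receptor CCR1 among others, and CXCR4 is the receptor that holds plasma cells in the CXCL12-rich niches of the marrow. Many chemokine genes are textbook NF-κB targets, and NF-κB activation itself needs the proteasome to remove its inhibitors.

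BIRC3, the gene of cIAP2, did not check the labels here. Its log2 signal in control cells was 13.57 and 13.67 untreated and 13.85 and 13.83 under bortezomib at 6 h, and 13.54 and 13.55 untreated and 14.04 and 13.83 under bortezomib at 24 h. In LP-1-cIAP2-eGFP it was 11.92 and 12.13 untreated and 12.51 and 12.79 under bortezomib at 6 h, and 11.92 and 12.06 untreated and 13.58 and 13.67 under bortezomib at 24 h. The probe was thus lower in the line that carried the cIAP2 vector, without overlap in any condition, by 1.16 over all of them (limma, adjusted p = 7.42e-06). According to the study's methods this probe lies in the 3′ untranslated part of the transcript, so it reads the endogenous gene and not the vector. The study states that it verified the raised cIAP2 by RT-qPCR and at the protein level, and neither was analysed here. The cell type could be checked by other genes. All 8 plasma cell markers, among them SDC1, TNFRSF17 and XBP1, were well above background on 15 or 16 arrays, whereas MS4A1, PAX5, CSF1R, FCGR3A and COL1A2, which define B cells, monocytes and fibroblasts, were above it on 0 arrays. Other markers of those cells, and markers of T cells, were above background on some arrays. Among them were the T cell marker CD2 on 15, CD14 and CD68 on 13 each and COL1A1 on 10.

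A single array stood apart. Replicate 1 of LP-1-cIAP2-eGFP under bortezomib for 24 h had a median log2 processed signal of 3.18 and 35.5% of its gene spots well above background, while the other 15 arrays ranged from 5.73 to 6.64 and from 49.0% to 71.1%. The SD of the difference between the replicates was 1.48 in that condition and 0.50 to 0.77 in the other conditions. The listed genes are therefore given with and without this array where their values rest on it. Wherever 1 array is left out below, its condition keeps a single array with no spread of its own, so the p values then rest on the spread within the remaining conditions.

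**Figure D1:**
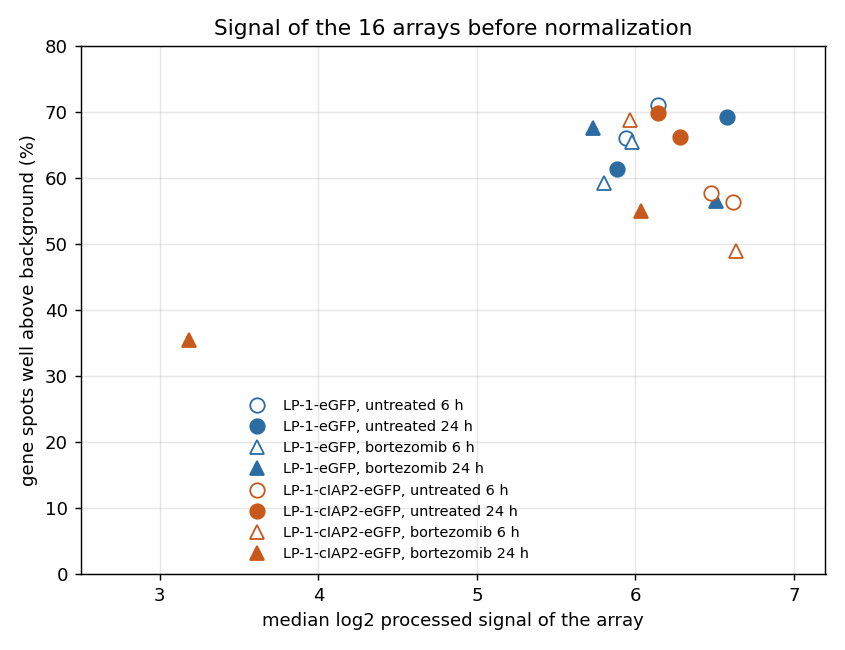
Median log2 processed signal (x axis) and percent of gene spots well above background (y axis) of each of the 16 arrays before normalization; colour gives the line, shape the treatment and filling the time. Replicate 1 of LP-1-cIAP2-eGFP under bortezomib for 24 h lies alone at 3.18 and 35.5%.

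The RefSeq promoter table used here held 6 of the 10 genes, and the 250 bases before the first listed start (GRCh38.p14) are given here for genes whose signals moved. CCL3 and its near-identical copy CCL3L3 are shown because a probe of either may read both. CXCL2 and CXCL3 stand for the ligands that rose beside them, and CXCL10 and CCR1 for the genes that fell. Capitals mark matches on either strand to the NF-κB consensus, the AP-1 site TGANTCA, the cAMP response element TGACGTCA, the composite C/EBP-ATF site TGATGNAAN and the interferon-stimulated element GAAANNGAAA, and matches to the NF-κB consensus may overlap each other.
CCL3, chr17:36090144-36090393, minus strand: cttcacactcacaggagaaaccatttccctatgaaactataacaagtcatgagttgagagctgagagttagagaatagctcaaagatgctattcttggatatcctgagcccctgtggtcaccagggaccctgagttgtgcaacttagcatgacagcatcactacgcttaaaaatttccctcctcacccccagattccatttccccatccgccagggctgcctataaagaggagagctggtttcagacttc
CCL3L3, chr17:36196759-36197008, minus strand: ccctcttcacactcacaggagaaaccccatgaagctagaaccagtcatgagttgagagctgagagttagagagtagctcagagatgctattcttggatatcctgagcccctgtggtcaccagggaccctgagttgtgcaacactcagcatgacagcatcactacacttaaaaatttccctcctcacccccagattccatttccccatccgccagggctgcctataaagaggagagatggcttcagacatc
CXCL2, chr4:74099196-74099445, minus strand: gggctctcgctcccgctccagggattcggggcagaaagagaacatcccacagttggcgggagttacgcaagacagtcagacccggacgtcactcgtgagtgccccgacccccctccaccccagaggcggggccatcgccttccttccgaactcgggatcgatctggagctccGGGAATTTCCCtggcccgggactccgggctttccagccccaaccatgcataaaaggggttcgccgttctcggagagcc
CXCL3, chr4:74038690-74038939, minus strand: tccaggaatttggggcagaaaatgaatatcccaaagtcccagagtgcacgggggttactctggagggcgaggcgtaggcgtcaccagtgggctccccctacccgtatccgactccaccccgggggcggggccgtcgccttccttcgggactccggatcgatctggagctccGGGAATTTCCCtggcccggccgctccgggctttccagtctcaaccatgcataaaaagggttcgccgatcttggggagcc
CXCL10, chr4:76023498-76023747, minus strand: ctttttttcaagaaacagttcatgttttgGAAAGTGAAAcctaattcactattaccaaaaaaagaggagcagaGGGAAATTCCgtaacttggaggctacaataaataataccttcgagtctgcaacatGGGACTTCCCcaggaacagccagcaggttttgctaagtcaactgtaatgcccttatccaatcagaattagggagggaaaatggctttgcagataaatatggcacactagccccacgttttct
CCR1, chr3:46208314-46208563, minus strand: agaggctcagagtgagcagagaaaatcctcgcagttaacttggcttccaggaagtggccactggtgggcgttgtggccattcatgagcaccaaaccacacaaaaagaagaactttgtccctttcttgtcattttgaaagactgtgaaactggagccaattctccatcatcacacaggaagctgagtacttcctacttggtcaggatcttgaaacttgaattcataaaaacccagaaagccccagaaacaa
The CCL3 and CCL3L3 windows were identical in 234 of 256 aligned columns (91.4%). CXCL2 and CXCL3 both held the stretch GGGAATTTCCC, which gives 2 overlapping NF-κB matches on opposite strands, and CXCL10 held 2 NF-κB matches and 1 interferon-stimulated element. None of the 5 motifs was found in these windows of CCL3, CCL3L3 and CCR1, which says only that those letters are not there. Over all 35116 promoter windows of this length the NF-κB consensus occurred in 9.96%, the AP-1 site in 6.57%, the cAMP response element in 1.65%, the C/EBP-ATF site in 3.13% and the interferon-stimulated element in 3.02%. On chromosome 17 of the same assembly CCL5, CCL3 and CCL4 lie in this order, followed by the copies CCL3L3 and CCL4L2.

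Of the 10 genes 8 could be tested. CXCL8, the neutrophil attractant interleukin-8, was well above background on 0 of the 16 arrays. CCL20, the ligand of CCR6, was above background on 3 arrays only. Its log2 signal was 7.37 and 3.84 on the control arrays under bortezomib for 24 h, 2.85 and 6.22 on the arrays of LP-1-cIAP2-eGFP in that condition, and 3.20 and 4.40 in LP-1-cIAP2-eGFP at 6 h of bortezomib. In each of these pairs 1 array was above background and the other was not, so no level or change could be given for CCL20. CXCL16, a membrane-bound ligand of CXCR6, was above background on 8 arrays and passed the filter through the untreated control cells.

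**Figure D2:**
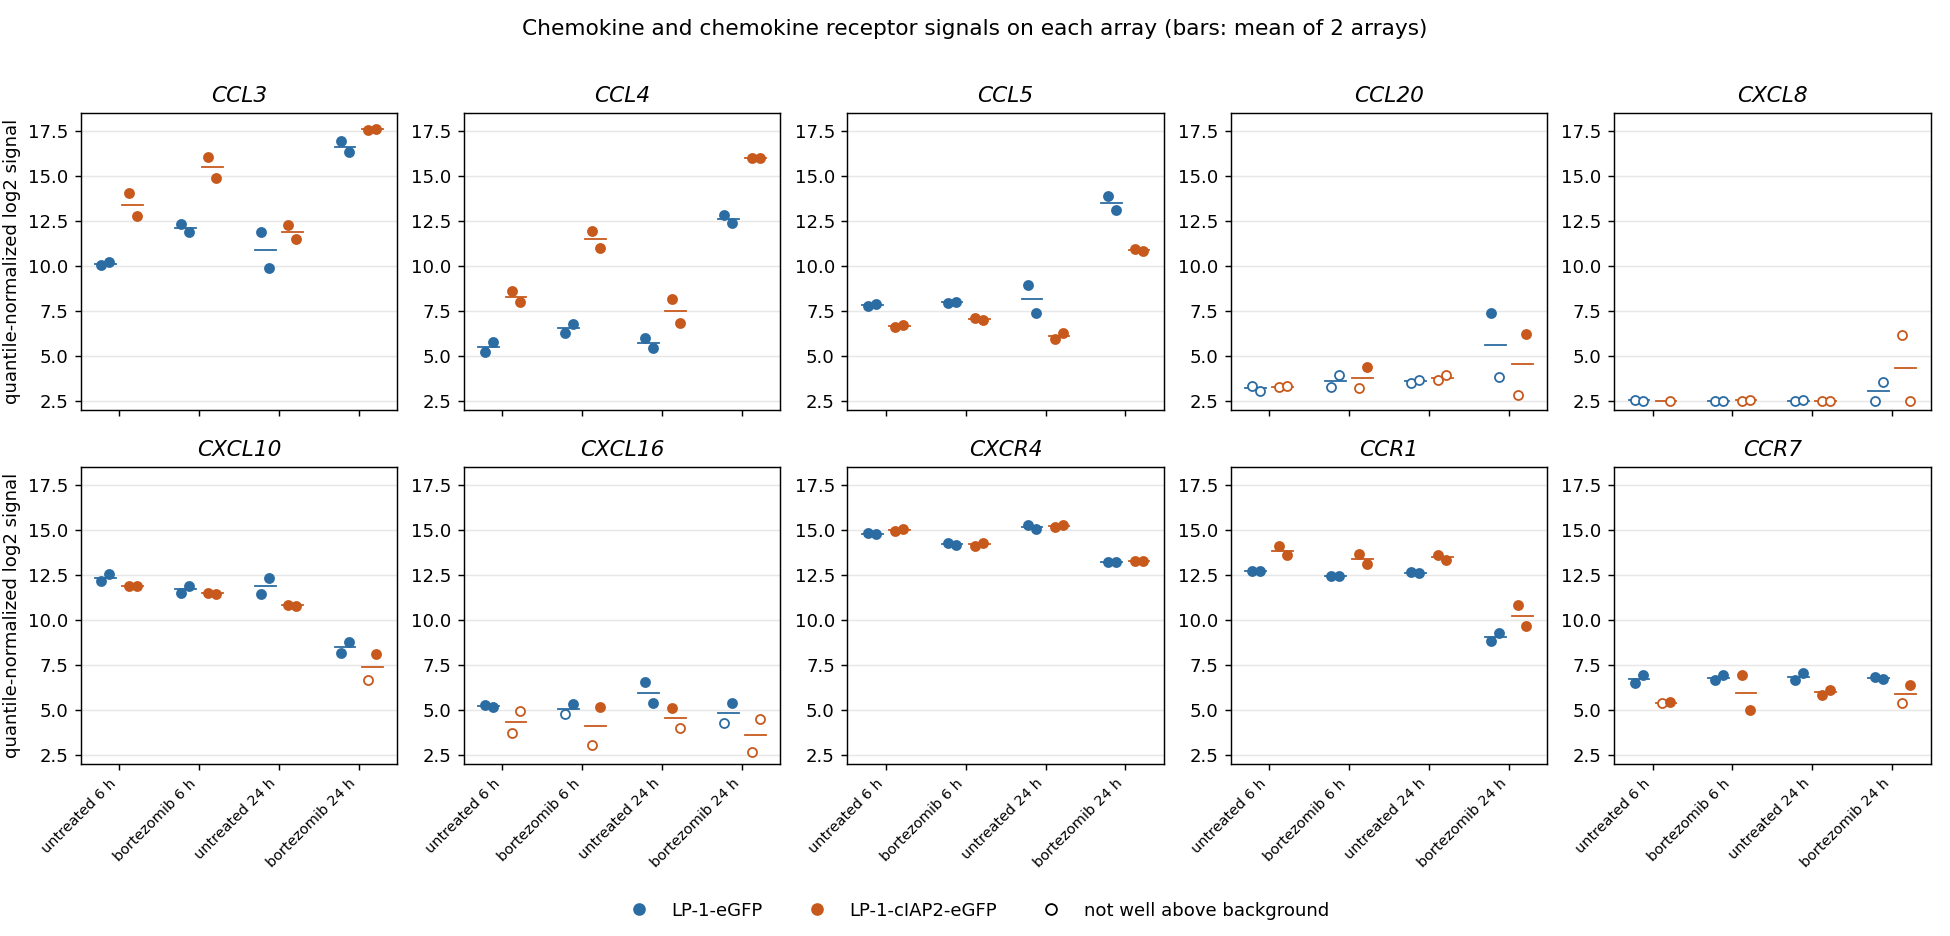
Quantile-normalized log2 signal (y axis) of the 10 genes, by their brightest probe, on each array, grouped by treatment and time (x axis) and coloured by line; bars are means of 2 arrays and open points are not well above background. CCL3, CCL4 and CCL5 are high in both lines under bortezomib for 24 h, CXCL10, CXCR4 and CCR1 are low there, and CCL20, CXCL8 and CXCL16 lie close to background.

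After 24 h of bortezomib some of the listed genes rose in control cells and some fell. CCL3 and CCL5 rose, whereas CXCL10, CXCR4 and CCR1 fell, and CXCL16 and CCR7 did not pass the test. The signal of CCL4 was 121-fold that of untreated cells, a log2 difference of 6.92, or 5.57 with normexp background correction, which models the local background in place of the scanner's own subtraction. In bulk RNA of a treated culture fewer cells of a kind and less RNA per cell cannot be told apart.

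CCL4 (MIP-1β), an attractant of monocytes and T cells, had log2 signals of 5.98 and 5.43 in untreated control cells at 24 h and of 12.85 and 12.41 under bortezomib. The SE of that difference was 0.47, and the second CCL4 probe gave 7.14 ± 0.58 with a correlation of 0.997 between the probes over the 16 arrays. The untreated control cells sat low on this probe, and the arrays of the conditions did not overlap.

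CCL3, the MIP-1α ligand of CCR1, had log2 signals of 11.90 and 9.90 in untreated control cells and of 16.94 and 16.32 under bortezomib. It rose by 5.73 ± 0.66, or 53.1-fold (adjusted p = 2.66e-04), and the log2 rise was 6.74 without the first and 4.73 without the second untreated array. The untreated replicates lay 2 log2 units apart, and both treated arrays were far above either of them. CCL5 (RANTES), a ligand of CCR1 and CCR3, had signals of 8.96 and 7.38 untreated and of 13.88 and 13.13 under bortezomib, a rise of 5.33 ± 0.42 or 40.3-fold (adjusted p = 4.09e-05). Without the first or the second untreated array the log2 rise was 6.12 or 4.54. The arrays of the conditions again did not overlap.

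CXCL10, the interferon-inducible ligand of CXCR3, went the other way. Its log2 signals were 11.45 and 12.30 in untreated control cells and 8.18 and 8.77 under bortezomib, a fall of 10.6-fold (log2 change -3.40 ± 0.44, adjusted p = 4.94e-04). A second CXCL10 probe, which lacked 1 treated array, gave -3.004 ± 0.28. The receptor CCR1 had signals of 12.66 and 12.596 untreated and of 8.81 and 9.29 under bortezomib, a fall of 12.0-fold (log2 change -3.58 ± 0.36, adjusted p = 1.33e-04). CCR1 thus fell in the cells in which its ligands CCL3 and CCL5 rose. CXCR4 changed least among the genes called, from 15.28 and 15.04 to 13.20 and 13.23, a fall of 3.85-fold (log2 change -1.94 ± 0.14, adjusted p = 2.51e-05), and its SE was the smallest of the 5.

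CCR7, the receptor for the lymph node chemokines CCL19 and CCL21, had signals of 6.65 and 7.02 untreated and of 6.82 and 6.70 under bortezomib. The change of -0.08 ± 0.54 (adjusted p = 0.954) lay within the replicate spread. CXCL16 had signals of 6.53 and 5.38 untreated and of 4.28 and 5.36 under bortezomib, and the change was -1.14 ± 0.84 (adjusted p = 0.436), with 1 of the 2 treated arrays below background.

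Among the 38 tested chemokine and receptor genes other than CCL4, 5 (13.2%) were called higher and 5 (13.2%) lower in control cells at 24 h, where a call needed an adjusted p below 0.05 together with a change above 2-fold. CXCL3, counted among those called higher at 24 h in either line and in the later comparison of the 24 h with the 6 h response, passed the filter only through treated cells and had to differ. Of all 16394 genes tested 6.69% were called higher and 8.44% lower. At an unadjusted limma p under 0.05 there were 12 of the 38 chemokine genes (31.6%), against 40% of all genes. The median log2 change was -0.28 over these chemokine genes and -0.04 over all genes tested. Of the 7 tested genes of the list without CCL4, 2 were called higher and 3 lower, with a median of -1.14.

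In LP-1-cIAP2-eGFP cells CCL3 and CCL5 rose and CXCL10, CXCR4 and CCR1 fell as well. The log2 signals of CCL4 were 8.15 and 6.81 untreated and 15.998 on both arrays under bortezomib, a difference of 8.52 ± 0.47 or 366-fold. On the log2 scale it was 9.19 without the first and 7.84 without the second untreated array. CCL3 rose from 12.30 and 11.51 to 17.58 and 17.59, a change of 5.68 ± 0.66 or 51.2-fold (adjusted p = 2.14e-04). CCL5 rose from 5.93 and 6.26 to 10.93 and 10.81, a change of 4.77 ± 0.42 or 27.4-fold (adjusted p = 5.14e-05), and the log2 change was 3.22 with normexp background correction. For these 3 ligands the array of low signal made little difference, and without it the changes were 8.52, 5.68 and 4.72.

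Of the genes that fell, CXCL10 and CCR1 depended more on that array and CXCR4 did not. CXCL10 had signals of 10.85 and 10.78 untreated and of 6.64 and 8.08 under bortezomib, where the array of low signal gave the lower value and was not above background. Without that array the fall was 6.64-fold (log2 change -2.73, adjusted p = 7.05e-04). With both arrays the fitted log2 change of -3.45 ± 0.44 (adjusted p = 3.45e-04) includes the value below background and is no exact fold, and with normexp background correction it was -2.65. CCR1 went from 13.62 and 13.31 to 10.80 and 9.65, a fall of 9.47-fold with both arrays (adjusted p = 1.66e-04) and of 14.1-fold without the array of low signal (adjusted p = 6.57e-05). CXCR4 went from 15.17 and 15.27 to 13.27 on both treated arrays, a fall of 3.87-fold with both (log2 change -1.95 ± 0.14, adjusted p = 1.47e-05) and of 3.88-fold without it (adjusted p = 5.75e-05). The means of the lines lay within 0.20 of each other for CXCR4 in every condition.

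CCR7 gave -0.09 ± 0.54 (adjusted p = 0.914) with both arrays and 0.42 ± 0.62 without the array of low signal. CXCL16 gave -0.95 ± 0.84 with both (adjusted p = 0.426) and -0.01 ± 0.94 without it, with both treated arrays below background. No change was called for either gene in any of these fits.

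**Figure D3:**
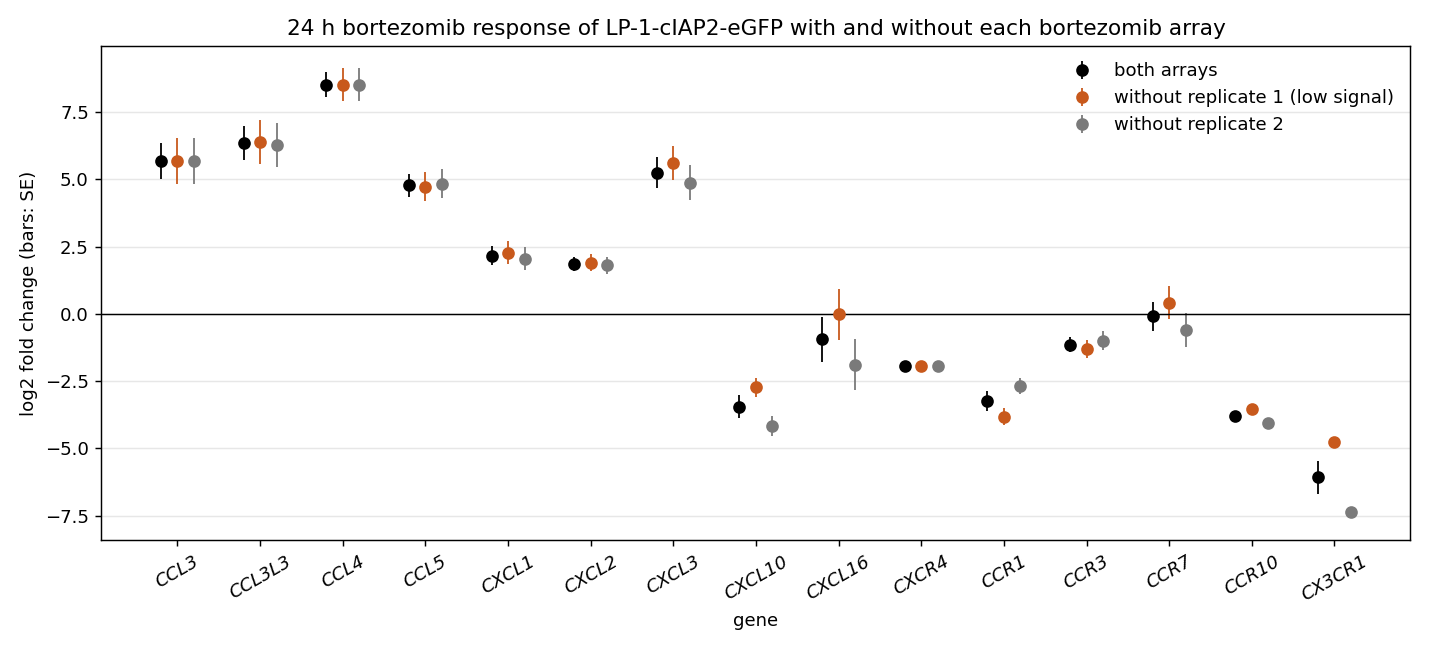
Log2 fold change (y axis, bars are SE) between bortezomib and untreated LP-1-cIAP2-eGFP cells at 24 h for 15 chemokine and receptor genes (x axis), with both bortezomib arrays, without replicate 1 and without replicate 2. CCL3, CCL4, CCL5 and CXCR4 stay at about the same value, whereas CXCL10 and CX3CR1 move. Without replicate 2 the points of CXCL2, CXCL3, CXCL10, CXCL16, CCR3, CCR7 and CX3CR1 rest on a treated signal that was not well above background, so for CXCL10 and CX3CR1 they are no exact change.

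Of the 38 tested chemokine and receptor genes other than CCL4, 6 (15.8%) rose and 6 (15.8%) fell at 24 h in LP-1-cIAP2-eGFP, where 7.66% of all genes were called higher and 13.9% lower. Without the array of low signal 7 were higher and 6 lower, and 12 of the 12 first calls were among them. When the array of low signal was instead the only treated one, 12 were called higher and 12 lower and 37.9% of all genes were called, against 21.6% with both arrays and 18.6% without it. With both arrays 15 of the 38 (39.5%) had an unadjusted limma p under 0.05, against 47.6% of all genes. The median change was -0.04 over the chemokine genes without CCL4 and -0.16 over all genes tested.

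Beyond the list, 7 of 31 tested genes of the family (22.6%) were called in at least 1 of 11 comparisons, against 34.3% of all genes tested. They are named for that reason only. CCL3L3, the copy of CCL3, had signals of 8.48 and 7.02 in untreated control cells and of 14.50 and 13.48 under bortezomib at 24 h, a rise of 6.24 ± 0.64 (adjusted p = 1.45e-04), and in LP-1-cIAP2-eGFP it rose by 6.34 ± 0.64 (adjusted p = 9.85e-05). The signals of CCL3 and CCL3L3, and those of CCL4 and its copies, cannot be assigned to a single gene with certainty. Without the first or the second untreated control array the rise of CCL3L3 in control cells was 6.97 or 5.51, and in LP-1-cIAP2-eGFP it was 5.41 with normexp background correction.

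CXCL1, CXCL2 and CXCL3 are ligands of the neutrophil receptor CXCR2. CXCL3 was not well above background in untreated cells of either line. Under bortezomib for 24 h it gave 6.70 and 6.43 in control cells, a rise of at least 4.57-fold. In LP-1-cIAP2-eGFP it gave 7.38 and 8.12, where only the second of these arrays was above background and 1 untreated array had no value. No size of the rise is therefore given for that line. CXCL2 rose by 1.13 ± 0.26 in control cells (adjusted p = 0.0111) and in LP-1-cIAP2-eGFP the fitted rise was 1.86 ± 0.26 (adjusted p = 5.73e-04), with 1 of the 2 treated arrays not above background. In LP-1-cIAP2-eGFP CXCL1 rose by 2.16 ± 0.36 (adjusted p = 0.00518), and it gave 0.93 ± 0.36 in control cells (adjusted p = 0.134), and its probe lacked 1 treated control array and 1 untreated array of LP-1-cIAP2-eGFP. The rises of these low signals depended on the processing. In the authors' normalized values the change of CXCL1 in LP-1-cIAP2-eGFP was 0.19 (adjusted p = 0.930). There the CXCL3 call in LP-1-cIAP2-eGFP ended (adjusted p = 0.256), and with normexp background correction its call in control cells did (adjusted p = 0.0818). CXCL2 with normexp gave 0.52 in control cells (adjusted p = 0.0790) and 1.01 in LP-1-cIAP2-eGFP, and its call in control cells also ended without the first untreated or the second treated array.

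Among the receptors, CCR10, which binds the epithelial chemokines CCL27 and CCL28, fell from 14.62 and 14.63 to 11.35 and 11.51 in control cells, a change of -3.19 ± 0.18 (adjusted p = 1.14e-05). In LP-1-cIAP2-eGFP CCR10 fell by 3.79 ± 0.18 (adjusted p = 2.67e-06). The fractalkine receptor CX3CR1 fell from 8.64 and 8.98 to 5.28 and 5.50 in control cells, of which only the second treated array was above background. The fitted change of -3.42 ± 0.62 (adjusted p = 0.00336), or -2.18 with normexp background correction, includes the value below it and is no exact fold. In LP-1-cIAP2-eGFP it went from 10.99 and 10.95 to 3.59 and 6.20, the first of them, on the array of low signal, not above background. Without that array the fall was 27.2-fold (log2 change -4.77, adjusted p = 5.80e-06). With both it was called as well (adjusted p = 1.08e-04), but its size then rests on the value below background, and the change was -5.03 with 75th percentile scaling and -3.74 with normexp. CCR3, the eosinophil receptor for CCL5 and CCL11, was called in LP-1-cIAP2-eGFP alone and fell at least 1.27-fold to below background (adjusted p = 0.0135). In control cells it gave -0.61, the difference between the lines was not called, and with 75th percentile scaling the call in LP-1-cIAP2-eGFP ended (adjusted p = 0.404). In LP-1-cIAP2-eGFP without the array of low signal the changes were 6.40 for CCL3L3, 2.27 for CXCL1, 1.91 for CXCL2 and -3.52 for CCR10, and these genes, CXCL3 and CCR3 were all called. The CCR3 call ended without the first or second untreated array (adjusted p = 0.0738 and 0.0531) and without the second treated array, where the change was under 2-fold.

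**Figure D4:**
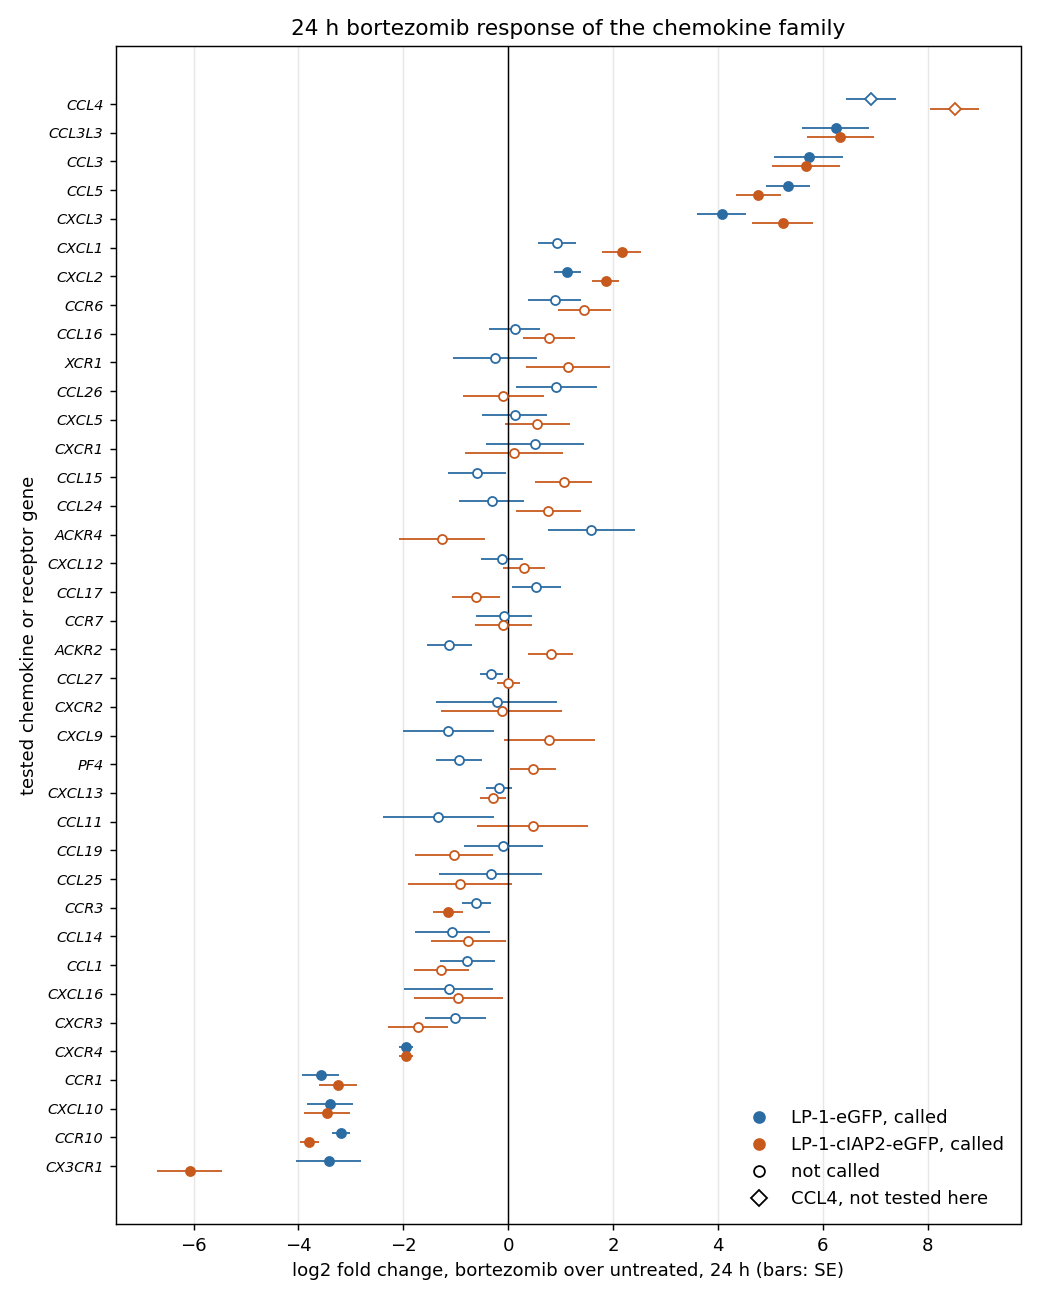
Log2 fold change between bortezomib and untreated cells at 24 h (x axis, bars are SE) for 38 of the 39 tested chemokine and receptor genes (y axis), in LP-1-eGFP and LP-1-cIAP2-eGFP; filled points were called, and CCL4, drawn as a diamond, was not tested. CCL4, CCL3L3, CCL3, CCL5 and CXCL3 form the upper end and CX3CR1, CCR10, CXCL10 and CCR1 the lower end.

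Of 72 chemokine and receptor genes listed by name 67 had a probe, and 39 could be tested, 25 of 48 ligands and 14 of 24 receptors. CXCL1 could not be fitted in comparisons that need a condition in which both arrays lacked it, and it is left out of the counts there. The 3 probes of CXCL12, the ligand of CXCR4, disagreed. The brightest gave -0.12 in control cells and 0.31 in LP-1-cIAP2-eGFP and was not called, while another gave -0.91 and -1.54 and was called in LP-1-cIAP2-eGFP (adjusted p = 0.00162).

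At 6 h no tested chemokine gene was called in either line in the fit of all 16 arrays. None of the 38 genes other than CCL4 was called in control cells, where 1.21% of all genes were called higher and 0.409% lower, and 6 of the 38 (15.8%) had an unadjusted limma p under 0.05, against 15.6% of all genes. Without the array of low signal, which changes the shared estimate of the spread, 2 of them were called. None of 37 was called in LP-1-cIAP2-eGFP, where 0.781% of all genes were called higher and 0.165% lower, and 6 (16.2%) had an unadjusted p under 0.05, against 13.1% of all genes. CCL3 gave 12.32 and 11.88 against 10.04 and 10.22 untreated in control cells, a difference of 1.97 ± 0.66 (adjusted p = 0.214). In LP-1-cIAP2-eGFP it gave 16.03 and 14.91 against 14.03 and 12.79, a difference of 2.06 ± 0.66 (adjusted p = 0.229). The treated arrays were higher than the untreated ones in both lines without overlap, but the differences did not pass the test. CXCL10 gave -0.66 ± 0.44 in control cells and -0.39 ± 0.44 in LP-1-cIAP2-eGFP, also without overlap and without a call. CCR1 gave -0.30 ± 0.36 in control cells, without overlap, and -0.47 ± 0.36 in LP-1-cIAP2-eGFP, where the arrays overlapped.

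CCL4 gave 6.30 and 6.76 against 5.24 and 5.77 at 6 h in control cells, a difference of 1.02 ± 0.47, and 11.93 and 11.02 against 8.60 and 7.97 in LP-1-cIAP2-eGFP, a difference of 3.19 ± 0.47. CCL5 gave 7.97 and 7.98 against 7.80 and 7.90 in control cells (0.12 ± 0.42) and 7.09 and 6.99 against 6.60 and 6.74 in LP-1-cIAP2-eGFP (0.37 ± 0.42). The treated arrays of both genes lay above the untreated ones in each line, for CCL5 by less than the SE. CXCR4 gave -0.57 ± 0.14 in control cells (adjusted p = 0.0747), and in LP-1-cIAP2-eGFP it gave -0.80 ± 0.14 (adjusted p = 0.0290), the latter past the p threshold but under the 2-fold limit.

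The difference between the 24 h and the 6 h response, averaged over the lines, was tested directly. It was called for CCL3 (3.69 ± 0.66, adjusted p = 0.00498), CCL5 (4.81 ± 0.42, adjusted p = 1.60e-04, and 3.95 with normexp background correction), CXCL10 (-2.91 ± 0.44, adjusted p = 0.00218), CCR1 (-3.03 ± 0.36, adjusted p = 6.62e-04) and CXCR4 (-1.26 ± 0.14, adjusted p = 4.46e-04). Without the array of low signal these were 3.69, 4.78, -2.55, -3.32 and -1.26, and all 5 were called. Of 37 chemokine genes other than CCL4, 5 were called with a larger value at 24 h, CXCL3 among them, and 5 with a lower one, against 20.7% of all genes called in either direction. Time alone gave little: between 24 and 6 h in untreated cells 0.0122% of all genes and 0 of 38 chemokine genes were called by limma, and 2 of the 38 (5.26%) had an unadjusted p under 0.05, against 5.82% of all genes.

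Before any drug was added, 2 of the 8 tested listed genes, CCL3 and CCL4, were higher with cIAP2 and 1, CCL5, was lower. These passed an adjusted p below 0.05 with a difference above 2-fold, beside 206 higher and 516 lower of 16388 genes. CCR1 stayed under 2-fold (0.98, adjusted p = 0.0459). CCR7, CXCL10, CXCL16 and CXCR4 did not pass, with adjusted p from 0.134 to 0.578. Compared with control cells, LP-1-cIAP2-eGFP had the higher CCL4 signal in each of the 4 conditions, whereas CCL5 was lower in each, and the arrays of the lines did not overlap within any of them. Averaged over treatment and time CCL4 was higher by 3.22 ± 0.24, or 9.30-fold (a log2 difference of 2.59 with normexp background correction), and in untreated cells alone it was higher by 2.28 ± 0.33 (adjusted p = 0.00250). CCL5 was lower by 3.26-fold (log2 difference -1.71 ± 0.21, adjusted p = 4.42e-04). CCL5 was the 1 gene called of 37 chemokine genes other than CCL4 at the study's thresholds, an adjusted p below 0.001 together with a difference above 2-fold when both lines were untreated, where 0.958% of all genes were called higher and 2.43% lower.

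CCL3 followed CCL4, with a difference of 2.15 ± 0.33 (adjusted p = 0.00153), just outside the threshold of 0.001, and without the first untreated control array at 24 h it passed (2.41, adjusted p = 4.96e-04). It also passed with the replicate number as a block, with normexp background correction, with 75th percentile scaling and with probes above background on all 16 arrays, at adjusted p from 3.44e-04 to 5.45e-04. It did not pass with the slide as a block (1.80, adjusted p = 0.0177), with array weights (adjusted p = 0.00870), in an ordinary 3-way ANOVA model (adjusted p = 0.00383), with no filter on signal, in the authors' normalized values, with the mean of its probes or without any of the other 15 arrays, and as 2 groups of 8 arrays the unadjusted p was 0.0869. Its log2 signals in untreated cells at 6 h were 14.03 and 12.79 in LP-1-cIAP2-eGFP and 10.04 and 10.22 in control cells, a 9.73-fold difference of the means. At 24 h they were 12.30 and 11.51 against 11.90 and 9.90, where the lines overlapped. CCR1 was higher in LP-1-cIAP2-eGFP by 1.02 ± 0.18 (adjusted p = 0.00359), without overlap between the lines in any of the 4 conditions, and CCR7 was lower by 0.98 ± 0.27 (adjusted p = 0.0346). Neither met the threshold of 0.001. CXCL10 differed by -0.72 ± 0.22 (adjusted p = 0.0512), CXCL16 by -1.13 ± 0.42 (adjusted p = 0.109) and CXCR4 by 0.07 ± 0.07 (adjusted p = 0.542). Without the array of low signal the line differences were 3.22 for CCL4, -1.72 for CCL5 (adjusted p = 9.11e-04), 2.16 for CCL3 (adjusted p = 0.00310), 0.88 for CCR1, -0.85 for CCR7 and -0.54 for CXCL10.

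**Figure D5:**
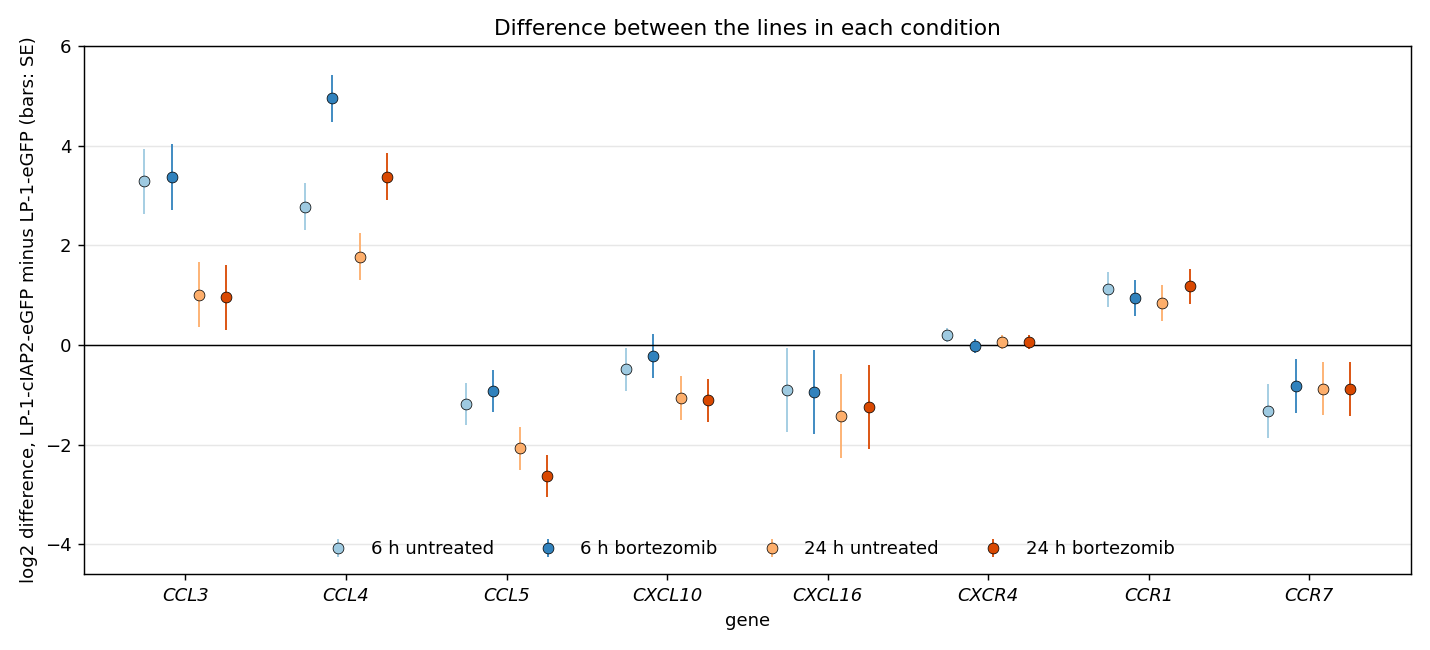
Difference in mean log2 signal between LP-1-cIAP2-eGFP and its control (y axis, bars are SE) of the 8 tested genes (x axis) in each combination of time and treatment. CCL3, CCL4 and CCR1 lie above 0 in all 4 conditions, CCL5, CCR7, CXCL10 and CXCL16 below 0 in all 4, and CXCR4 close to 0.

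Under bortezomib for 6 h CCL4 was 30.8-fold above control cells in LP-1-cIAP2-eGFP (log2 difference 4.95 ± 0.47, or 3.98 with normexp background correction and 4.21 with the slide as a block), and CCL3 was 10.4-fold higher (3.37 ± 0.66, adjusted p = 0.0230), and the copy CCL3L3 12.4-fold higher (3.63 ± 0.64, adjusted p = 0.0137). In this condition both arrays of LP-1-cIAP2-eGFP were on slide 1 and both control arrays on slide 2. Line and slide therefore cannot be told apart within it, and the slide as a block takes its slide effect from other conditions. CCL3 and CCL3L3 were the 2 called of the 38 chemokine genes other than CCL4, against 3.2% of all genes in either direction. The calls of CCL3 and CCL3L3 ended with the slide as a block (2.67, adjusted p = 0.202, and 2.86, adjusted p = 0.127) and without any of 3 arrays, the first or second control array or the first array of LP-1-cIAP2-eGFP, with adjusted p from 0.0837 to 0.195. For CCL3L3 the difference was 2.92 without the first and 4.35 without the second array of LP-1-cIAP2-eGFP. Under bortezomib for 24 h CCL4 was 10.4-fold higher (3.37 ± 0.47), and CXCL2 was higher with a fitted log2 difference of 1.34 (adjusted p = 0.0168), which includes the array of low signal, where CXCL2 was not above background, while CCL5 was 6.21-fold lower (log2 difference -2.64 ± 0.42, adjusted p = 0.00760). CXCL2 and CCL5 were the 2 called of 38, against 4.75% of all genes. Without the array of low signal the difference of CXCL2 was 1.38 (adjusted p = 0.0417), and the adjusted p of CCL5 was 0.0254. Without the first control array they were 0.0666 for CCL5 and 0.107 for CXCL2, without the second 0.0611 for CXCL2, and with array weights 0.355 for CCL5 and 0.589 for CXCL2. The array weights were equal for both arrays of a condition and lowest, at 0.126, for LP-1-cIAP2-eGFP under bortezomib for 24 h. That setting discounts the whole condition and cannot set the array of low signal apart from its replicate. With normexp the difference of CXCL2 was 0.61 (adjusted p = 0.0828).

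The lines and the slides were not balanced. Of the 8 arrays on slide 1, 6 were of LP-1-cIAP2-eGFP and 2 were control arrays. Slide 1 held both lines only in untreated cells at 6 h and under bortezomib for 24 h. Slide 2 held both only in untreated cells at 6 h and 24 h. Within slide 1 the untested mean difference between the lines was 2.99 for CCL4, 2.23 for CCL3 and -2.16 for CCL5, and within slide 2 it was 1.92, 1.68 and -1.48. These values thus cover different conditions on each slide, and bortezomib for 6 h is in neither. With the slide as a block CCL4 differed by 2.85, and CCL5 by -1.75 (adjusted p = 0.00482), which no longer met the threshold of 0.001. The part of the slide in these differences was not tested beyond that. CCL5 missed 0.001 as well with array weights (adjusted p = 0.00122) and in an ordinary 3-way ANOVA model (adjusted p = 0.00120). As 2 groups of 8 arrays its unadjusted p was 0.132. Omission of any of 11 single arrays also left CCL5 above 0.001, with adjusted p up to 0.00207 and differences from -1.75 to -1.61. The 5 arrays whose omission did not were both untreated control arrays at 24 h, the second control array and both arrays of LP-1-cIAP2-eGFP under bortezomib for 24 h.

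Whether the 2 lines responded differently to the drug was asked with the difference between their responses. For 0 of 38 chemokine genes other than CCL4 was such a difference called at 24 h, where 0.104% of all genes were called, and for 0 of 37 at 6 h, where 0% of all genes were. At an unadjusted limma p under 0.05 there were 6 of 38 (15.8%) and 1 of 37 (2.7%), against 8.71% and 1.54% of all genes. For CCL3 the difference was -0.05 ± 0.93 at 24 h (adjusted p = 0.984), and for CCL5 it was -0.56 ± 0.60 (adjusted p = 0.717). For CCL4, whose values are a description, the response of LP-1-cIAP2-eGFP was larger by 1.60 ± 0.67 at 24 h and by 2.17 ± 0.67 at 6 h. Differences of the size of these errors were not detectable with 2 arrays in each condition.

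Over the 8 condition means the genes most like CCL4 were sought among 15277 others. The 5 with the highest Pearson correlation were EAF2 (0.989), IBTK (0.986), SH3BGRL3 (0.985), ZNF3 (0.983) and AARS2 (0.983). Their changes under bortezomib at 24 h were much smaller than that of CCL4, from 0.38 for SH3BGRL3 to 1.11 for EAF2 in control cells. CCL3L3 stood at rank 8 and CCL3 at rank 16 (0.977), whereas CCL5 stood at rank 3223 (0.623). Among the 28 pairs of tested genes of the list CCL5 and CCR1 gave a correlation of -0.985. These correlations rest on 8 points that share the same arrays and the same normalization.

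Genes around the receptors and around NF-κB were given by lists. Of 28 tested genes of chemokine receptor signalling 1 rose and 3 fell in control cells at 24 h, and 3 rose and 5 fell in LP-1-cIAP2-eGFP, with medians of -0.12 and -0.30. Of all genes 6.69% rose and 8.44% fell in control cells, and 7.66% rose and 13.9% fell in LP-1-cIAP2-eGFP, with medians of -0.04 and -0.16. Averaged over the lines PTK2B, a kinase downstream of chemokine receptors, fell by 3.104, while RGS1 and RGS2, which shorten G protein signals, gave 3.22 and 2.56 and ADAM17, which sheds CXCL16 and CX3CL1, gave 1.60. RGS1 and RGS2 were called in LP-1-cIAP2-eGFP and not in control cells, which is no test of a difference between the lines. In the direct test of the difference between the responses of the lines at 24 h 1 of the 28 genes was called higher. Of all genes 0.104% were called in either direction there. Of 12 NF-κB feedback genes 3 rose in control cells and 5 in LP-1-cIAP2-eGFP and 0 fell, with medians of 0.18 and 0.12, beside 6.69% and 7.66% of all genes higher. The largest averaged changes were those of NFKBIZ (2.66), of NFKBIA (1.22), which encodes an inhibitor of NF-κB, of BIRC3 (1.01) and of NFKBIB (1.00).

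All 10 heat shock and stress genes taken as signs of proteasome inhibition were called higher at 24 h in both lines, with medians of 3.50 and 4.33. At 6 h 10 were called in control cells and 9 in LP-1-cIAP2-eGFP, while 0 of the tested chemokine genes other than CCL4 were called at that time. Beside these counts 6.69% and 7.66% of all genes were called higher at 24 h, and 1.21% and 0.781% at 6 h. The largest averaged changes at 24 h were those of ATF3 (5.67), HSPA1B (5.24), DNAJB1 (4.64) and BAG3 (4.63), of which HSPA1B shares most of its sequence with HSPA1A.

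Cell identity markers moved at 24 h as well. Of 8 plasma cell markers 5 fell in control cells and 7 in LP-1-cIAP2-eGFP, for example SDC1 by 1.80 and 3.11 and XBP1 by 1.72 and 1.20, alongside CXCR4, CCR1 and CCR10. Of all genes 8.44% and 13.9% were called lower there. CD68 rose by 1.85 in control cells (adjusted p = 0.0194), and the T cell and fibroblast markers gave no call. Their part in the chemokine results was not tested.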

How the data were processed

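Per the labels total RNA of all samples was extracted at one time, and it was hybridised to single-colour Agilent arrays, with 2 biological replicates a condition. The deposited scanner files hold Agilent Feature Extraction processed signal intensity, background-corrected by the authors' scanner software. Log2 intensity was quantile-normalized between arrays, as the study's methods state, and spots of a probe were averaged after control and outlier spots had been left out. The authors' own normalized log2 values, quantile-normalized in GeneSpring and centred on each probe's median, served as an alternative only. A probe was tested where some condition had it well above background on its 2 arrays, which left 33725 probes of 16394 genes, and a gene was represented by its brightest tested probe. limma 3.58.1 (R 4.3.3) fitted the 8 conditions over all 16 arrays, with Benjamini-Hochberg adjustment over all tested probes. A call required an adjusted p below 0.05 with a change above 2-fold, and for the line difference the study's 0.001 with more than 2-fold between untreated lines. A fold against a probe not well above background is a lower bound, written "at least", set by the dimmest detected signal of each array. Precision is limited by the number of arrays. The listed genes, the gene lists and the cell markers were chosen with earlier results of these data known, and the text names the listed genes, the other family members called, the 5 genes most like CCL4 and the 4 largest changes of each further list. CXCL12 and the cell markers were named after their values had been seen. Some items are not reported here by name, and remain in the counts. Each array was left out in turn, and the filter, scaling, background correction, slide, replicate number, array weights and test were varied.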

Additional observations from a re-analysis of the deposited data

How the results depend on the processing

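Of 54 values given for named genes, 36 kept their direction and, where tested, their side of the threshold under every alternative that could be run on them. For CCL3, CCL5, CXCL10, CXCR4, CCR1, CCR10 and CX3CR1 no alternative ended a call between bortezomib and untreated cells at 24 h. The count of chemokine genes called ranged, as each of the 16 arrays was left out, from 9 to 11 for bortezomib at 24 h in control cells, from 9 to 24 in LP-1-cIAP2-eGFP, from 9 to 18 for the 24 h against the 6 h response and from 0 to 2 at 6 h in control cells. It ranged from 0 to 2 for the averaged line difference, from 0 to 20 for the lines under bortezomib for 24 h, from 0 to 4 for them at 6 h and from 0 to 13 for the difference between their responses at 24 h. CCL4 was not counted in any of these. The values 24, 18, 20 and 13 arose without the second array of LP-1-cIAP2-eGFP under bortezomib for 24 h, so that the array of low signal stood alone. The 2 at 6 h in control cells and the 4 for the lines at 6 h arose without either array of that condition. With probes well above background on all 16 arrays, which leaves fewer genes tested, 6 were called at 24 h in control cells, 7 in LP-1-cIAP2-eGFP, 6 for the 24 h against the 6 h response and 3 for the line difference.

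With 75th percentile scaling 2 were called at 6 h in control cells, 4 for the line difference and 4 for the lines under bortezomib for 6 h. With normexp background correction these were 1, 3 and 4, and 1 for the difference between responses at 24 h. Array weights, which were equal within each condition, gave 4 at 6 h in control cells, 0 for the lines under bortezomib for 24 h and 4 at 6 h. The arrays of the compared line alone gave 1 at 6 h in control cells, and without the fold limit 1 was called at 6 h in LP-1-cIAP2-eGFP. For the line difference the slide as a block, an ordinary 3-way ANOVA and 2 groups of 8 arrays at an unadjusted p gave 0 each, the mean of a gene's probes gave 2, and an adjusted p of 0.05 gave 5. With the slide as a block 0 were called for the lines under bortezomib for 6 h. The cause of these shifts was not tested.

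Replicate numbers did not pair the samples. Deviations of same-numbered arrays correlated at -0.11 to 0.24 over 28 pairs of conditions, with 7 above 0.1. With the replicate number as a block 1 chemokine gene was called at 6 h in LP-1-cIAP2-eGFP, 3 for the line difference and 4 for the lines under bortezomib for 24 h.

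Changes that were not called turned in sign. CCR7 at 24 h in control cells gave 0.0245 with 75th percentile scaling, 0.0015 with normexp and 0.11 without the second untreated array, and in LP-1-cIAP2-eGFP 0.69, 0.0042, 0.05 without the second untreated array and 0.42 without the array of low signal. As single arrays were left out its lowest values were -0.26 in control cells and -0.60 in LP-1-cIAP2-eGFP. CXCL16 in LP-1-cIAP2-eGFP gave 0.41 with 75th percentile scaling and 0.38 with normexp. The median of all probes for LP-1-cIAP2-eGFP at 24 h was -0.16 after quantile normalization and 0.21 with 75th percentile scaling. The 2 arrays a condition and the dim signals of CCL20, CXCL8 and CXCL16 limit what could be measured.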
